A study of Mus musculus with 8 samples.

Results

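The Cyp4 fatty acid omega-hydroxylases are cytochrome P450 enzymes that put a hydroxyl group on the last carbon of a fatty acid or an eicosanoid. The 10 genes described here are Cyp4a10, Cyp4a14, Cyp4a31, Cyp4a32, Cyp4a12a, Cyp4a12b, Cyp4f13, Cyp4f14, Cyp4f15 and Cyp4v3. They were taken by name, after Ensembl identifiers had been matched to gene symbols, from a table of 20894 genes, and all 10 were found in it. Gene expression was measured by poly-A selected, strand-specific RNA sequencing of livers from wild-type mice that had been given an adeno-associated virus of serotype AAV8 and had been fasted in the daytime before the tissue was taken. In the POLR2G group the virus carried POLR2G, a subunit of RNA polymerase II, and in the GFP control group it carried green fluorescent protein, with 4 libraries in each group. Both constructs used the TBG promoter, which is active mainly in hepatocytes, so both groups shared the virus, the promoter and the fast. Age, sex, strain, vector dose and the time after injection are not given in the labels, and the labels name no animal for any library. The p-values therefore cover the spread among the 8 libraries, which may be technical.

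Omega-hydroxylation takes place in the endoplasmic reticulum, where P450 enzymes draw electrons from the P450 reductase and cytochrome b5. Alcohol and aldehyde dehydrogenases then turn the product into a dicarboxylic acid, which is shortened in peroxisomes. In mouse liver, Cyp4a10 and Cyp4a14 are known as genes that the nuclear receptor PPARA switches on during fasting, Cyp4a12a is known as a gene with male-biased expression, and Cyp4f enzymes are known to act on leukotrienes and vitamin E.

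All values are estimated counts per gene or CPM, which puts counts on one scale with TMM factors, a correction for library composition. Total counts were 16362899 to 22165491 in the 4 POLR2G libraries and 14159056 to 18865284 in the 4 GFP control libraries. Polr2g had 2299.9 to 2632 CPM in the POLR2G libraries and 12.4 to 14.8 CPM in the GFP control libraries, so each library matched its group. One POLR2G column carries a number that the labels do not list and is called the unnumbered POLR2G library. Hepatocyte markers such as Alb were abundant in both groups, with a summed level over 8 of 9 listed markers of 115417 to 128314 CPM in POLR2G and 121659 to 141999 CPM in GFP control libraries. Summed markers of Kupffer cells (6 genes, 187 to 371 against 172 to 270.2 CPM), sinusoidal endothelial cells (5 genes, 103 to 129 against 96.1 to 129 CPM) and stellate cells (6 genes, 98.4 to 147 against 79.5 to 149 CPM) overlapped between POLR2G and GFP control libraries. So did summed markers of cholangiocytes (6 genes, 6.53 to 10.8 against 5.64 to 11.7 CPM), leukocytes (7 genes, 8.78 to 17.9 against 6.90 to 13.6 CPM) and blood (4 genes, 569 to 1073 against 418 to 1006 CPM). Of the single markers tested, only Ttr (hepatocytes) and Lyve1 (sinusoidal endothelial cells) were lower in every POLR2G library, as were 2.68% of all genes tested. Ttr averaged 5013 ± 167 CPM in POLR2G and 5710 ± 467 CPM in GFP control libraries (SD, n = 4 each). Lyve1 averaged 7.00 ± 0.661 CPM in POLR2G and 12.6 ± 5.82 CPM in GFP control libraries (SD, n = 4 each). Both were named after their values were seen. The summed adipocyte markers (5 genes) were near 0 but lower in every POLR2G library, at 0 to 0.228 CPM in POLR2G and 0.339 to 1.03 CPM in GFP control libraries, with Lep and Retn at 0 in all 8. Their part in the results was not tested. In bulk liver, fewer cells of a type and less RNA per cell cannot be told apart. Counts are low for Glul, which pericentral hepatocytes are known to express strongly, at 2.46 ± 0.665 CPM in POLR2G and 2.24 ± 0.952 CPM in GFP control libraries (SD, n = 4 each; named after its values were seen). Whether a gene's value covers all of its transcripts was not tested.

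The Cyp4a genes lie together on chromosome 4 (GRCm38, GENCODE M21), and several of them are so alike that estimated counts can be split between them. Cyp4a14 (ENSMUSG00000028715) spans 115486200 to 115496142 on the minus strand. Cyp4a10 (ENSMUSG00000066072, 115518264 to 115533649), Cyp4a31 (ENSMUSG00000028712, 115563649 to 115579015) and Cyp4a32 (ENSMUSG00000063929, 115600969 to 115621602) follow it on the plus strand. The coding sequence of Cyp4a10 was 97.2% identical to that of Cyp4a32 and 96.6% identical to that of Cyp4a31, and Cyp4a31 and Cyp4a32 were 96.0% identical. Cyp4a14 stood apart from the other 3, with 75.3% identity to Cyp4a10, 74.8% to Cyp4a31 and 75.1% to Cyp4a32. The stretch below, coding bases 106 to 165 counted from the start codon, is the 60-base window in which the most alike pair of the 4 genes differs most. It is shown because reads that cover it can be told apart. Capitals mark the 19 positions that are not the same in all 4 genes.
Cyp4a10: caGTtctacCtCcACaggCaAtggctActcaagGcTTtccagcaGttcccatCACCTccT
Cyp4a14: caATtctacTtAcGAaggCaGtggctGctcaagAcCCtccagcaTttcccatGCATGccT
Cyp4a31: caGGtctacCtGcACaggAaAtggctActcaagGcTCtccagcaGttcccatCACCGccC
Cyp4a32: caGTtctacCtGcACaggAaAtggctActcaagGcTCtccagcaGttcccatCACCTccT
In this window Cyp4a32 differed from Cyp4a10 and from Cyp4a31 at 3 positions each, and Cyp4a14 differed from each of the others at 16 or 17.

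Cyp4a12a (ENSMUSG00000066071, chromosome 4, 115299046 to 115332815, plus strand) and Cyp4a12b (ENSMUSG00000078597, 115411624 to 115439034, plus strand) were the most alike pair of the 10 genes, with 98.5% identical coding sequences and 23 differences over 1527 bases. Coding bases 624 to 683 hold the most differences that any 60-base window of the pair has, and capitals mark the 4 positions that differ.
Cyp4a12a: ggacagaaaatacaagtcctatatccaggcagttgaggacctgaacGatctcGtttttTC
Cyp4a12b: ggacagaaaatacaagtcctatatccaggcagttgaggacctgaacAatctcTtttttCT
The remaining members are less alike. Cyp4f15 (ENSMUSG00000073424, chromosome 17, 32685627 to 32703352, plus strand), Cyp4f14 (ENSMUSG00000024292, 32905070 to 32917342, minus strand) and Cyp4f13 (ENSMUSG00000024055, 32924688 to 32947402, minus strand) shared 74.1% to 80% of their coding bases in pairs. Cyp4v3 (ENSMUSG00000079057, chromosome 8, 45304944 to 45333216, minus strand) was 48.6% to 51.4% identical to the other 9.

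How far each transcript can be told from other genes was measured as the share of its 31-base windows that also occur in a transcript of another gene in GENCODE M21. The share was 65.3% for Cyp4a32, 62.9% for Cyp4a12b, 62.2% for Cyp4a12a, 45.5% for Cyp4a10 and 33.7% for Cyp4a31. It was 2.07% for Cyp4a14 and 7.49% to 9.76% for Cyp4f13, Cyp4f14, Cyp4f15 and Cyp4v3. Counts of single genes within Cyp4a10, Cyp4a31 and Cyp4a32, and within Cyp4a12a and Cyp4a12b, are uncertain, and sums of the copies are given beside them. The Cyp4a32 model has 1530 coding bases and no untranslated region, unlike the other 9, whose models have 180 to 2230 bases outside the coding sequence.

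**Figure D1:**
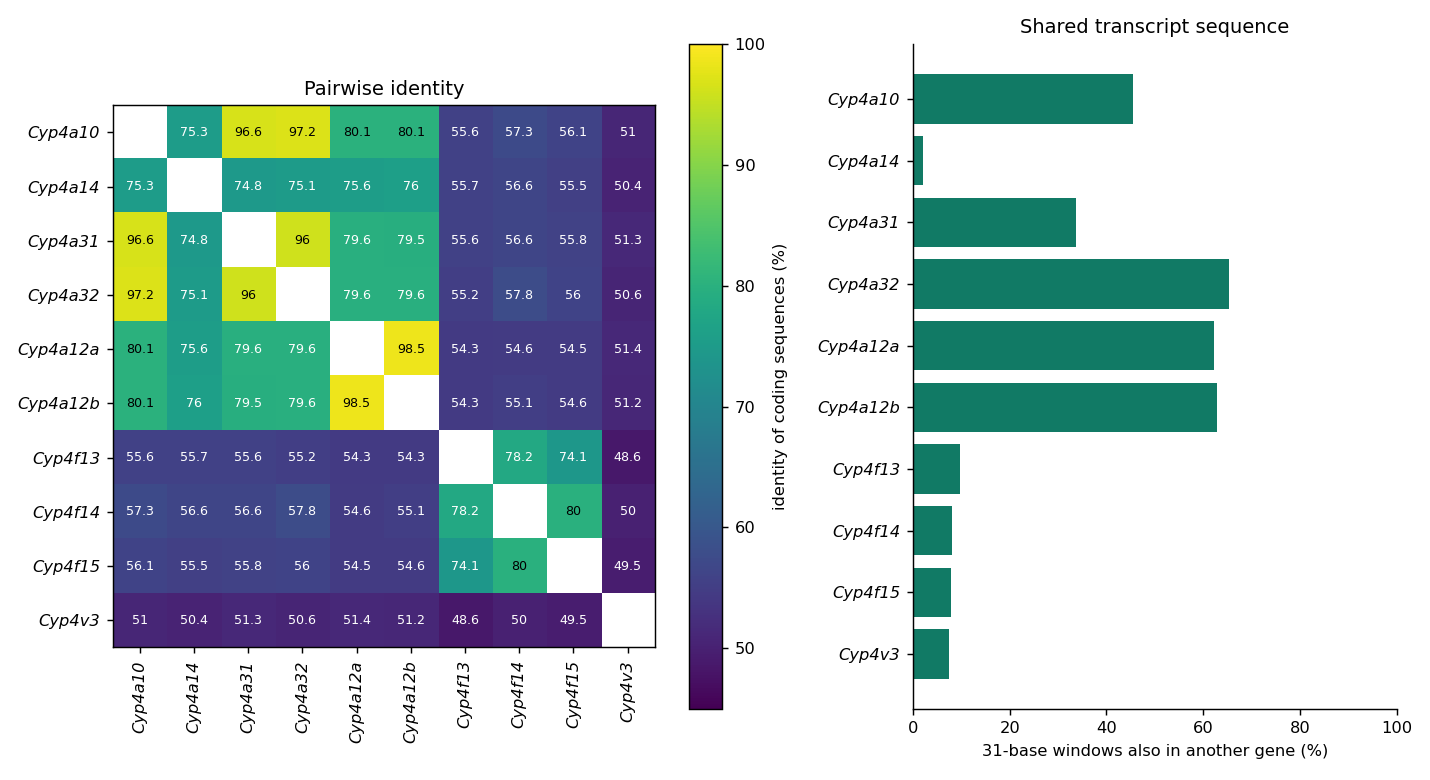
The left panel shows the identity of each pair of coding sequences in percent, and the right panel shows the percent of each gene's 31-base transcript windows that also occur in another gene. Cyp4a10, Cyp4a31 and Cyp4a32 form one block of 96.0% to 97.2% identity and Cyp4a12a and Cyp4a12b another at 98.5%, while Cyp4a14 shares 2.07% of its windows.

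Compared with the GFP control libraries, 3 Cyp4a genes were lower in every POLR2G library, and 2 other members were higher in every one. Cyp4a14 was 20.9-fold, Cyp4a31 5.31-fold and Cyp4a10 2.88-fold lower in the POLR2G group, while Cyp4f15 and Cyp4v3 were each 1.30-fold higher. Cyp4a32, Cyp4a12a, Cyp4a12b, Cyp4f13 and Cyp4f14 overlapped between the groups. The groups were thus apart for 5 of the 10 members (2 higher and 3 lower in POLR2G), against 5.51% of the 10390 genes tested (2.83% higher and 2.68% lower). The main test was edgeR's quasi-likelihood test with Benjamini-Hochberg adjustment over all 10390 genes and a threshold of 0.05. None of the 10 members passed it, as few genes did (0.0385% of those tested). At an unadjusted p under 0.05 edgeR gave 7 of the 10 members, 4 higher and 3 lower, against 8.30% of all genes tested (4.20% higher and 4.10% lower). DESeq2, another count test, called 4 of the 10 (Cyp4a10, Cyp4a14 and Cyp4a31 lower, Cyp4f15 higher), against 1.35% of all genes (0.616% lower and 0.731% higher). limma-voom, a linear-model test, called none of the 10, against 0.0289% of all genes.

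**Figure D2:**
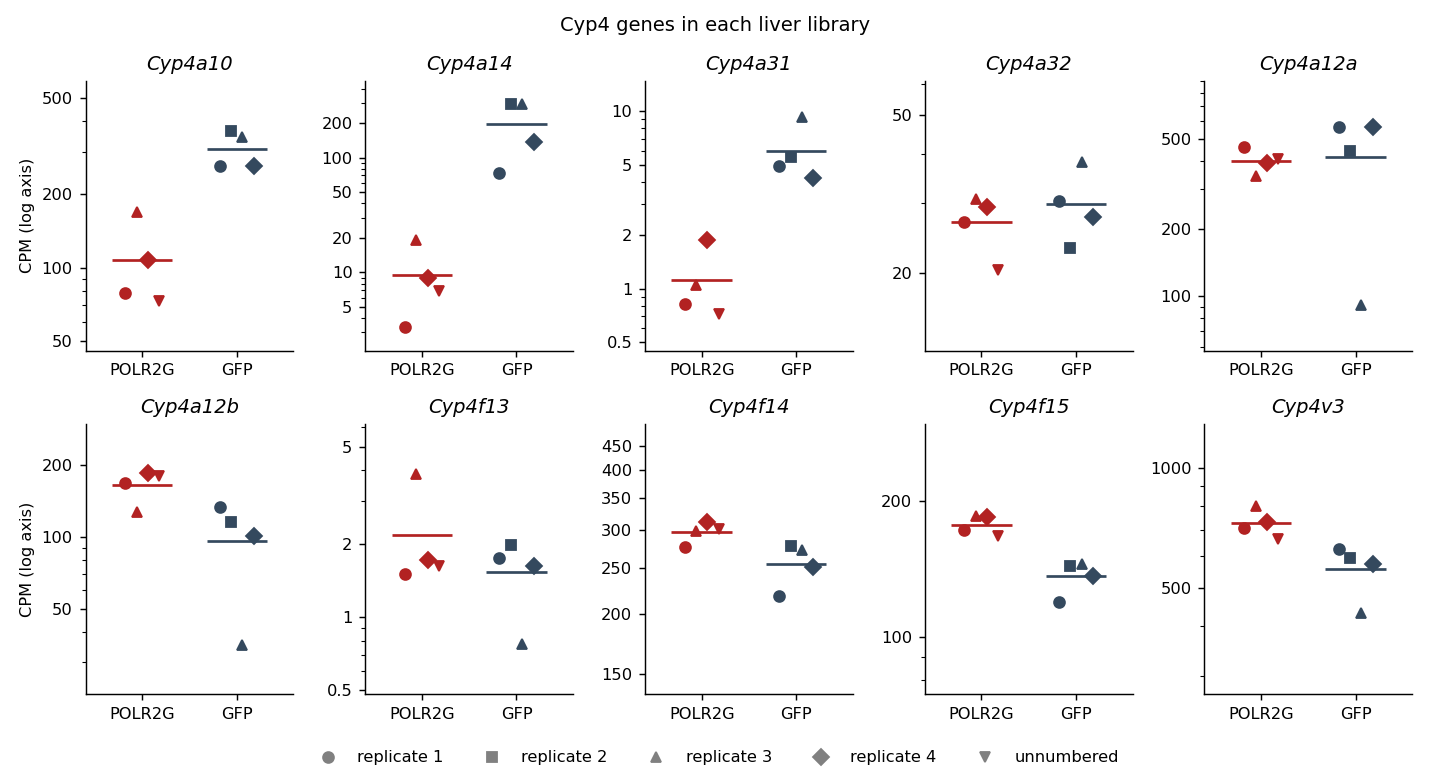
CPM of each of the 10 genes in each library, on a log axis, with POLR2G libraries in red on the left and GFP control libraries in dark blue on the right of each panel; lines are group means and marker shapes are replicate numbers. The POLR2G libraries lie below all GFP control libraries for Cyp4a10, Cyp4a14 and Cyp4a31 and above all of them for Cyp4f15 and Cyp4v3.

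Cyp4a14 encodes a lauric acid omega-hydroxylase of mouse liver. It had 69, 327, 156 and 115 counts in POLR2G replicates 1, 3 and 4 and the unnumbered POLR2G library, which is 3.33, 19.1, 8.89 and 6.89 CPM. GFP control replicates 1 to 4 had 1300, 5017, 4516 and 2530 counts, or 73.5, 291, 291 and 137 CPM. The lowest GFP control library was thus well above the highest POLR2G library, and the levels varied widely within each group as well. The highest library had 5.75 times the CPM of the lowest within the POLR2G group and 3.96 times within the GFP control group. Cyp4a14 averaged 9.56 ± 6.79 CPM in POLR2G and 198 ± 110.4 CPM in GFP control libraries (SD, n = 4 each). The log2 fold change was -4.38 (SE 0.604, unadjusted p = 3.86e-05, edgeR adjusted p = 0.0668; DESeq2 adjusted p = 2.12e-08). By p it ranked 6 of 10390 genes, and it passed edgeR's threshold when GFP control replicate 1 was left out (edgeR adjusted p = 0.0406, where 0.0567% of all genes passed). It did not pass with any other library left out, where the edgeR adjusted p reached 0.270.

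Cyp4a10 encodes another fatty acid omega-hydroxylase. It measured 78.6, 169, 108 and 72.9 CPM in POLR2G replicates 1, 3 and 4 and the unnumbered POLR2G library, against 261, 366, 345 and 263 CPM in GFP control replicates 1 to 4. The groups did not overlap, and POLR2G replicate 3 was the highest of its group, as it was for Cyp4a14. GFP control replicates 2 and 3 were the highest of theirs for both genes. Cyp4a10 averaged 107 ± 44.1 CPM in POLR2G and 309 ± 54.5 CPM in GFP control libraries (SD, n = 4 each), a log2 fold change of -1.53 (SE 0.258, edgeR adjusted p = 0.131; DESeq2 adjusted p = 3.33e-07). Without POLR2G replicate 3 its edgeR adjusted p was 0.0347, where 0.0376% of all genes passed. It did not pass with any other library left out, where the edgeR adjusted p reached 0.415.

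Cyp4a31, a close copy of Cyp4a10, was the scarcest of the 4 genes. It had 17, 18, 33 and 12 counts in POLR2G replicates 1, 3 and 4 and the unnumbered POLR2G library, against 87, 95, 143 and 78 counts in GFP control replicates 1 to 4. Every POLR2G library was lower than every GFP control library. It averaged 1.12 ± 0.527 CPM in POLR2G and 5.97 ± 2.23 CPM in GFP control libraries (SD, n = 4 each), a log2 fold change of -2.41 (SE 0.378, edgeR adjusted p = 0.103; DESeq2 adjusted p = 1.41e-06).

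Cyp4a32 did not share that pattern. It measured 26.9, 30.7, 29.4 and 20.4 CPM in POLR2G replicates 1, 3 and 4 and the unnumbered POLR2G library, against 30.4, 23.1, 38.1 and 27.7 CPM in GFP control replicates 1 to 4. The groups overlapped, with a mean of 26.9 ± 4.61 CPM in POLR2G and 29.9 ± 6.27 CPM in GFP control libraries (SD, n = 4 each), a log2 fold change of -0.15 (SE 0.169, edgeR adjusted p = 0.874; DESeq2 adjusted p = 0.904). Its transcript has the largest share of windows in common with other genes among the 10.

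Summed over Cyp4a10, Cyp4a14, Cyp4a31 and Cyp4a32, the value no longer depends on how reads were split among these copies. The sum was 109.6, 220.1, 148 and 101 CPM in POLR2G replicates 1, 3 and 4 and the unnumbered POLR2G library, against 369.9, 685, 683 and 432 CPM in GFP control replicates 1 to 4. All POLR2G libraries were lower than all GFP control libraries, and the sum was 3.75-fold lower in the POLR2G group. It averaged 145 ± 54.3 CPM in POLR2G and 543 ± 166 CPM in GFP control libraries (SD, n = 4 each). In a fit over the whole table with the sums in place of their members, the log2 fold change was -1.91 (SE 0.290, unadjusted p = 8.32e-05, edgeR adjusted p = 0.105; DESeq2 adjusted p = 2.73e-05). In that fit 0.0385% of 10386 features passed edgeR's threshold and the groups were apart for 5.49%. Cyp4a14 is less alike than the others, and with it left out of the sum the log2 fold change was -1.35 (SE 0.229, edgeR adjusted p = 0.139).

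Cyp4a12a encodes an enzyme known in mice for making 20-HETE from arachidonic acid, and Cyp4a12b is its near-identical copy. Cyp4a12a measured 461, 341, 392 and 408 CPM in POLR2G replicates 1, 3 and 4 and the unnumbered POLR2G library, against 563, 442, 92.0 and 563 CPM in GFP control replicates 1 to 4. GFP control replicate 3 was far below the other 7 libraries, and the groups overlapped. Cyp4a12a averaged 400.5 ± 49.3 CPM in POLR2G and 415 ± 223 CPM in GFP control libraries (SD, n = 4 each), a log2 fold change of -0.0527 (SE 0.438, edgeR adjusted p = 0.992). The sign of this difference was positive in 5 of 17 alternative fits, so no direction is given for it.

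Cyp4a12b measured 168, 127, 184 and 179.7 CPM in POLR2G replicates 1, 3 and 4 and the unnumbered POLR2G library, against 134, 115, 35.5 and 101 CPM in GFP control replicates 1 to 4. The same GFP control library was lowest, and POLR2G replicate 3 lay within the range of the GFP control group. Its mean was 164 ± 26.2 CPM in POLR2G and 96.3 ± 42.7 CPM in GFP control libraries (SD, n = 4 each), a log2 fold change of 0.77 (SE 0.331, unadjusted p = 0.0438, edgeR adjusted p = 0.583). Summed, the pair averaged 565 ± 68.6 CPM in POLR2G and 512 ± 263 CPM in GFP control libraries, a log2 fold change of 0.14 (SE 0.412, edgeR adjusted p = 0.962). Without GFP control replicate 3 the log2 fold change of the sum turned to -0.18.

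That library also stood apart in a mean over other male-biased liver genes, which were not all low in it. Over the 14 listed male-biased genes, the mean log2 CPM, centred on each gene's mean over the 8 libraries, was -0.73 in GFP control replicate 3. It was 0.092 to 0.33 in the POLR2G libraries and -0.22 to 0.17 in the other 3 GFP control libraries. Over Cyp17a1 and Tox, the 2 tested genes among 11 with female-biased expression, the same measure was 0.83 in GFP control replicate 3, the highest of the 8 libraries. It was -1.03 to -0.12 in the POLR2G libraries and 0.22 to 0.46 in the other 3 GFP control libraries, so the groups did not overlap. The part of the male-biased and female-biased genes in the Cyp4a12 values, or in those of Cyp4a10 and Cyp4a14, was not tested. None of the 14 male-biased genes passed edgeR's threshold. In POLR2G the mean was higher for 12 and lower for 2 of them (log2 fold changes with a median of 0.45, against -0.0031 over all genes tested), with Serpina1e, an antitrypsin gene, at 0.68 (SE 0.131, edgeR adjusted p = 0.166) and Nudt7, a peroxisomal coenzyme A hydrolase, at 0.58 (SE 0.181, edgeR adjusted p = 0.419). Neither Cyp17a1 nor Tox passed, and both had a lower mean in POLR2G. Cyp17a1, a steroid hydroxylase gene, averaged 8.06 ± 2.18 CPM in POLR2G and 20.3 ± 9.40 CPM in GFP control libraries (SD, n = 4 each; edgeR adjusted p = 0.262), and Tox, a nuclear protein gene, 5.80 ± 1.40 CPM in POLR2G and 9.37 ± 2.83 CPM in GFP control libraries (SD, n = 4 each; edgeR adjusted p = 0.506).

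The Cyp4f genes and Cyp4v3 had higher means in the POLR2G group, by much smaller factors than the differences of Cyp4a10, Cyp4a14 and Cyp4a31. Cyp4f15 encodes an enzyme that hydroxylates leukotriene B4 in mice. It measured 172, 184, 184 and 167 CPM in POLR2G replicates 1, 3 and 4 and the unnumbered POLR2G library, against 119, 143, 145 and 136 CPM in GFP control replicates 1 to 4. The groups did not overlap and each was tight, with the highest library at 1.104 times the lowest in POLR2G and 1.21 times in GFP control. It averaged 177 ± 8.62 CPM in POLR2G and 136 ± 11.6 CPM in GFP control libraries (SD, n = 4 each), a log2 fold change of 0.38 (SE 0.0775, unadjusted p = 7.36e-04, edgeR adjusted p = 0.196; DESeq2 adjusted p = 5.85e-04).

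Cyp4v3 is the mouse counterpart of human CYP4V2, which is mutated in Bietti crystalline dystrophy of the eye. It measured 704, 804, 729.7 and 661 CPM in POLR2G replicates 1, 3 and 4 and the unnumbered POLR2G library, against 626, 595, 433 and 575 CPM in GFP control replicates 1 to 4. The groups were apart by a small margin, and GFP control replicate 3 was again the lowest. The mean was 725 ± 59.9 CPM in POLR2G and 557 ± 85.6 CPM in GFP control libraries (SD, n = 4 each), a log2 fold change of 0.38 (SE 0.118, edgeR adjusted p = 0.413; DESeq2 adjusted p = 0.0811).

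Cyp4f14, known in mice as a hydroxylase of leukotriene B4 and vitamin E, measured 276, 298, 312 and 301 CPM in POLR2G replicates 1, 3 and 4 and the unnumbered POLR2G library, against 218, 277, 273 and 251 CPM in GFP control replicates 1 to 4. POLR2G replicate 1 lay just below GFP control replicate 2, so the groups overlapped. It averaged 297 ± 14.9 CPM in POLR2G and 255 ± 27.1 CPM in GFP control libraries (SD, n = 4 each), a log2 fold change of 0.22 (SE 0.0867, unadjusted p = 0.0309, edgeR adjusted p = 0.530). Cyp4f13 had few reads, with 31, 66, 30 and 27 counts in POLR2G replicates 1, 3 and 4 and the unnumbered POLR2G library, against 31, 34, 12 and 30 counts in GFP control replicates 1 to 4. POLR2G replicate 3 was high and GFP control replicate 3 low, and the other 6 libraries were close together. Its log2 fold change was 0.50 (SE 0.418, edgeR adjusted p = 0.819), and 0.066 without POLR2G replicate 3. GENCODE M21 lists 6 coding transcripts for Cyp4f14, 4 for Cyp4a31, 3 for Cyp4f13, 2 each for Cyp4f15 and Cyp4a10 and 1 each for the other 5 members.

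**Figure D3:**
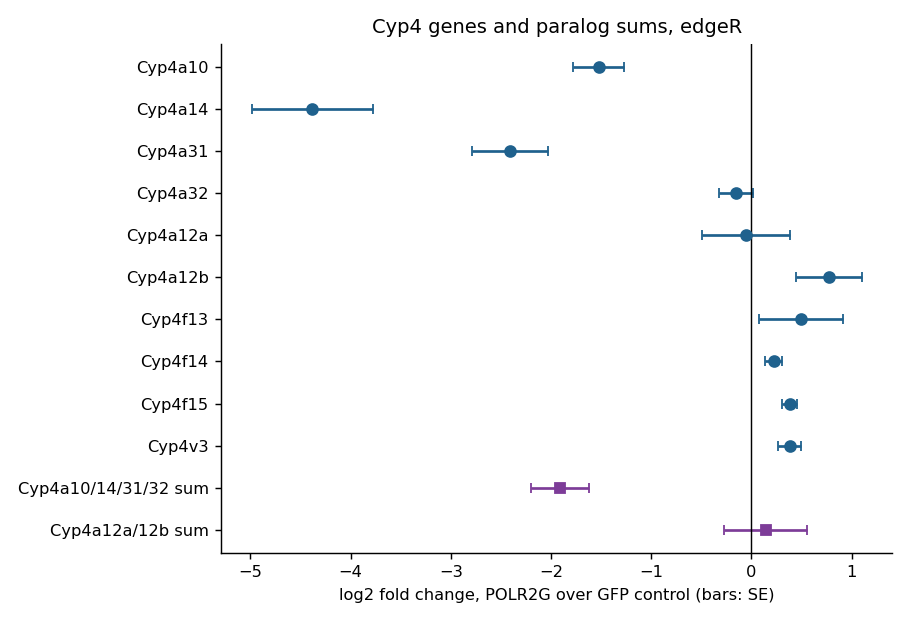
Log2 fold change of each gene (circles) and of the 2 paralog sums (squares), POLR2G over GFP control, with bars of 1 SE from edgeR. Cyp4a14, Cyp4a31 and Cyp4a10 lie at -4.38, -2.41 and -1.53, Cyp4a32 and Cyp4a12a near 0, and the Cyp4f genes and Cyp4v3 between 0.22 and 0.50.

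Whether these genes differed from each other in their response was tested with ratios of counts within a library, which do not depend on library scaling. The 5 ratios were chosen with earlier results of these data known. Their p-values therefore describe these libraries and are not independent support. The ratio of the Cyp4a10, Cyp4a14, Cyp4a31 and Cyp4a32 sum to the Cyp4f13, Cyp4f14 and Cyp4f15 sum was 0.244, 0.452, 0.298 and 0.215 in POLR2G replicates 1, 3 and 4 and the unnumbered POLR2G library. It was 1.09, 1.62, 1.63 and 1.11 in GFP control replicates 1 to 4. This Cyp4a sum, which leaves out Cyp4a12a and Cyp4a12b, was thus below the Cyp4f sum in every POLR2G library. In every GFP control library it was above the Cyp4f sum. The log2 ratio averaged -1.79 ± 0.471 in POLR2G and 0.42 ± 0.326 in GFP control libraries, a difference of -2.21 (SD, n = 4 each; exact two-sided permutation p = 0.0286, the smallest that 4 against 4 libraries allow; 0.0476 adjusted by Benjamini-Hochberg over 5 ratios). Leaving Cyp4a14 out of the sum gave a difference of -1.68 with an adjusted exact permutation p of 0.0714. With any 1 of the 4 POLR2G libraries or GFP control replicate 3 left out, the adjusted exact permutation p was 0.0714 for this ratio.

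Within the Cyp4a genes the differences were unequal. The ratio of Cyp4a14 to Cyp4a10 counts was 0.0427, 0.113, 0.0826 and 0.0949 in POLR2G replicates 1, 3 and 4 and the unnumbered POLR2G library, against 0.282, 0.796, 0.844 and 0.522 in GFP control replicates 1 to 4. The groups did not overlap, and the log2 ratio differed by -2.84 between means of -3.67 ± 0.615 in POLR2G and -0.83 ± 0.731 in GFP control libraries (SD, n = 4 each; exact permutation p = 0.0286, adjusted 0.0476). The ratio of the 4-gene Cyp4a sum to the Cyp4a12a and Cyp4a12b sum also differed (log2 difference -2.32, exact permutation p = 0.0286, adjusted 0.0476). This ratio was 0.174, 0.471, 0.257 and 0.172 in the POLR2G libraries, in the same order. In GFP control replicates 1 to 4 it was 0.531, 1.23, 5.36 and 0.65. The log2 ratio averaged -2.03 ± 0.682 in POLR2G and 0.30 ± 1.51 in GFP control libraries (SD, n = 4 each). Without GFP control replicate 3 the log2 difference was -1.61. Without any 1 of the same 5 libraries the adjusted exact permutation p was 0.0714 for Cyp4a14 over Cyp4a10 and 0.0952 for the Cyp4a over the Cyp4a12 sum. The other 2 of the 5 ratios did not differ beyond their spread. They were Cyp4a12a and Cyp4a12b over the Cyp4f sum (log2 difference 0.12, adjusted exact permutation p = 0.971) and Cyp4v3 over the Cyp4f sum (0.11, adjusted exact permutation p = 0.893).

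A pair of further ratios was chosen after the counts were seen. Cyp4a32 over the sum of Cyp4a10 and Cyp4a31 was 0.339, 0.181, 0.268 and 0.277 in POLR2G replicates 1, 3 and 4 and the unnumbered POLR2G library, against 0.114, 0.0625, 0.108 and 0.104 in GFP control replicates 1 to 4. The groups were apart, by 1.46 on the log2 scale (n = 4 each; exact permutation p = 0.0286, adjusted over the pair 0.0571). Cyp4a12a over Cyp4a12b had a log2 mean of 1.29 ± 0.182 in POLR2G and 1.97 ± 0.456 in GFP control libraries (SD, n = 4 each; exact permutation p = 0.0857, adjusted 0.0857). Both ratios compare near-identical copies, so an uneven split of shared reads would enter them directly, and its part was not tested.

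**Figure D4:**
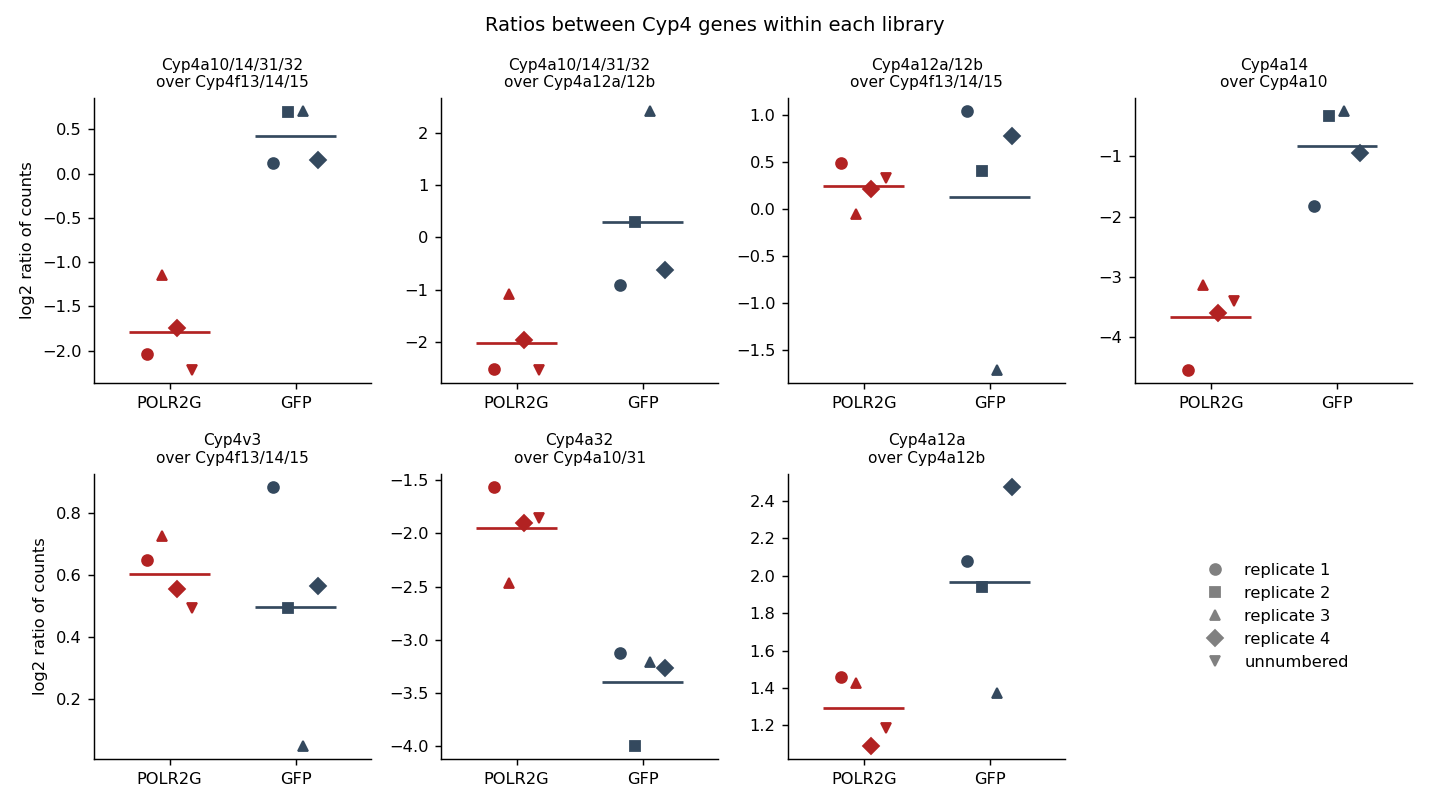
Log2 ratio of counts between Cyp4 genes or sums within each library, POLR2G on the left and GFP control on the right of each panel, with lines at the group means. The groups are apart for the 4-gene Cyp4a sum over the Cyp4f sum and over the Cyp4a12 sum, for Cyp4a14 over Cyp4a10 and for Cyp4a32 over Cyp4a10 and Cyp4a31.

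To set the genes beside each other, levels were divided by the length of the longest coding model. In the POLR2G libraries Cyp4v3 was the most abundant at 190.4 ± 15.7 CPM per kilobase, followed by Cyp4a12a at 165 ± 20.4, Cyp4f14 at 134 ± 6.73, Cyp4f15 at 81.6 ± 3.97, Cyp4a12b at 68.7 ± 10.9 and Cyp4a10 at 50.8 ± 20.9 CPM per kilobase. Cyp4a32 (17.6 ± 3.01), Cyp4a14 (3.83 ± 2.72), Cyp4f13 (1.24 ± 0.646) and Cyp4a31 (0.446 ± 0.21 CPM per kilobase) came last. Neighbours in this order whose libraries overlapped were Cyp4v3 with Cyp4a12a, Cyp4a12b with Cyp4a10, and Cyp4a14 with Cyp4f13. In the GFP control libraries Cyp4a12a led at 171 ± 92.1 CPM per kilobase, before Cyp4v3 at 146 ± 22.5, Cyp4a10 at 146 ± 25.9, Cyp4f14 at 115 ± 12.2, Cyp4a14 at 79.4 ± 44.2 and Cyp4f15 at 62.7 ± 5.35 CPM per kilobase. Cyp4a12b (40.2 ± 17.8), Cyp4a32 (19.5 ± 4.10), Cyp4a31 (2.38 ± 0.889) and Cyp4f13 (0.874 ± 0.300 CPM per kilobase) followed, and neighbours overlapped except Cyp4a32 with Cyp4a31 and Cyp4a31 with Cyp4f13. By this measure Cyp4a10 ranked 6 of 10 in the POLR2G group and 3 of 10 in the GFP control group, and Cyp4a14 ranked 8 in the POLR2G group and 5 in the GFP control group. The level of Cyp4a32 is divided by a model without untranslated regions and is not strictly comparable.

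Of 10 further Cyp4 genes, Cyp4a29, Cyp4a30b, Cyp4f37 and Cyp4f40 had 0 counts in every library and 3 had enough counts to be tested. None of the 3 passed edgeR's threshold. Cyp4x1 had a log2 fold change of -0.88 (SE 0.389, edgeR adjusted p = 0.595) at 0.597 ± 0.112 CPM in POLR2G and 1.11 ± 0.455 CPM in GFP control libraries. Cyp4b1 was at 11.5 ± 2.17 CPM in POLR2G and 8.71 ± 3.05 CPM in GFP control libraries (SD, n = 4 each), a log2 fold change of 0.40 (SE 0.257, edgeR adjusted p = 0.751).

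The steps of the pathway before and after the Cyp4 enzymes were measured as lists. Among genes that supply electrons to P450 enzymes, 0 of 5 passed (2 higher and 3 lower means in POLR2G, with a median of -0.036 on the log2 scale). The group's lowest p belonged to Cyb5a, which encodes microsomal cytochrome b5 (0.27, SE 0.0698, edgeR adjusted p = 0.320), and to Cyb5b, its mitochondrial outer membrane form (-0.22, SE 0.0926, edgeR adjusted p = 0.555). Of 7 tested dehydrogenase genes that act on omega-hydroxy fatty acids, 0 passed and 6 had a higher mean (median 0.064), with Adh1, an alcohol dehydrogenase, at 0.25 (SE 0.0787, edgeR adjusted p = 0.437) and Aldh1a7, an aldehyde dehydrogenase, at 0.16 (SE 0.141, edgeR adjusted p = 0.823). Of 13 tested genes for the peroxisomal shortening of dicarboxylic acids, 0 passed and 12 had a lower mean (median -0.21). The acyl-CoA thioesterase genes Acot3 and Acot4 had the smallest p among them, at -2.28 (SE 0.477, edgeR adjusted p = 0.203) and -0.75 (SE 0.194, edgeR adjusted p = 0.320). Counts were low for Acaa1a, which is among the 12 and was named after its values were seen. It had 0 to 9 counts in POLR2G and 13 to 31 in GFP control libraries.

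Among 10 tested genes for fatty acid binding and other known PPARA targets, 1 fell and 0 rose, and 9 had a lower mean (median -0.49). Over all 10390 genes tested, edgeR called 0.0385% in either direction and 50.7% had a log2 fold change below 0. The one that fell was Cd36, a fatty acid transporter, at 22.7 ± 2.44 CPM in POLR2G and 39.6 ± 3.57 CPM in GFP control libraries (SD, n = 4 each), a log2 fold change of -0.80 (SE 0.101, edgeR adjusted p = 0.0481). Counts were low for Plin2, which is among the 9 and was named after its values were seen. It was at 0.959 ± 0.843 CPM in POLR2G and 0.969 ± 0.692 CPM in GFP control libraries (SD, n = 4 each). Of 12 tested genes for PPARA and its partners, 0 passed (4 with a higher and 8 with a lower mean; median -0.052). Ppargc1a, a coactivator of fasting genes, was at -0.48 (SE 0.134, edgeR adjusted p = 0.360) and Ncor1, a corepressor, at -0.31 (SE 0.115, edgeR adjusted p = 0.495). Ppara itself, named after its values were seen, was at 160.1 ± 29.8 CPM in POLR2G and 178 ± 17.6 CPM in GFP control libraries (SD, n = 4 each), a log2 fold change of -0.15 (SE 0.132, edgeR adjusted p = 0.825). Over pericentral hepatocyte genes, 0 of 9 tested passed (5 higher and 4 lower means, median 0.037), with the ammonium transporter gene Rhbg at 0.88 (edgeR adjusted p = 0.152) and the P450 gene Cyp1a2 at 0.32 (edgeR adjusted p = 0.482). Over periportal genes, 0 of 11 passed (5 higher and 6 lower, median -0.031), with the histidine ammonia-lyase gene Hal at 0.32 (edgeR adjusted p = 0.234) and the P450 gene Cyp2f2 at 0.20 (edgeR adjusted p = 0.455).

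**Figure D5:**
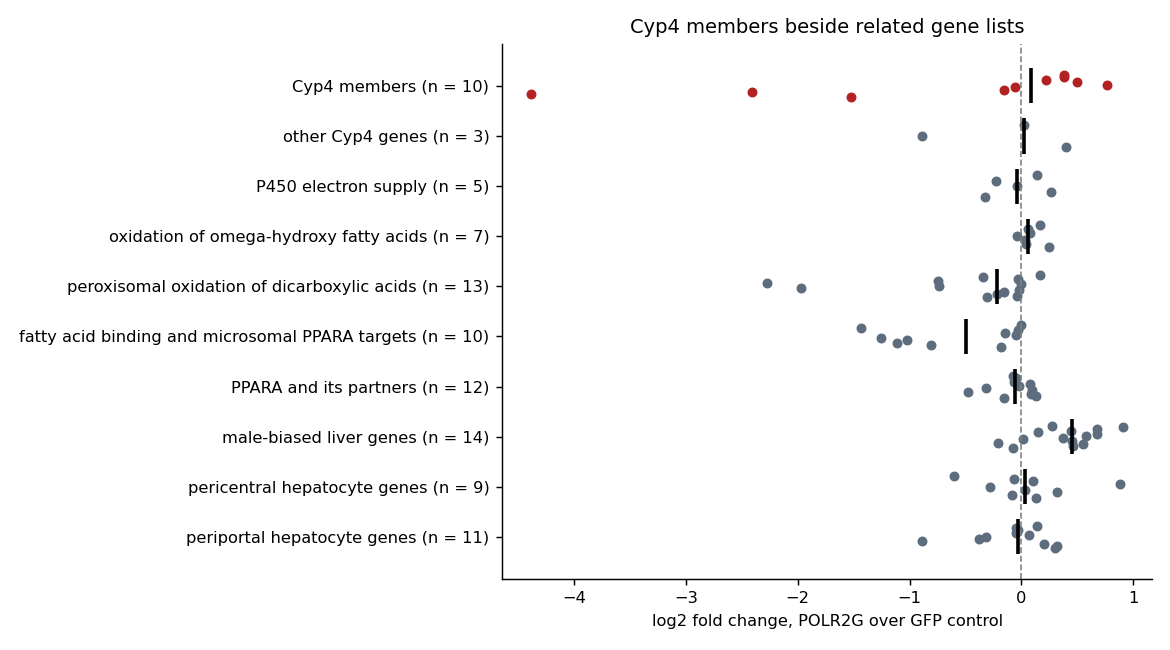
Log2 fold change, POLR2G over GFP control, of each tested gene (points) in the Cyp4 set and in the related lists, with black bars at the medians and a dashed line at the median of all genes tested (-0.0031). Cyp4a14, Cyp4a31 and Cyp4a10 lie far to the left of the other Cyp4 members, and the list of other PPARA targets has its median at -0.49.

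Patterns like those of the 2 sums were sought among 10083 other tested genes, by the root mean square difference of log2 CPM over the 8 libraries after centring each gene on its mean. The nearest to the 4-gene Cyp4a sum was Fgf21, a fasting-induced liver hormone gene, with a difference of 0.32 and levels of 0.864 ± 0.379 CPM in POLR2G and 2.34 ± 0.584 CPM in GFP control libraries (SD, n = 4 each). Acat2, a thiolase gene, followed at 0.44, and Plin4, a lipid droplet coat gene, at 0.45. The nearest to the Cyp4a12 sum were Rasgrp2 (0.23), Mcm5 (0.27) and Coro2a (0.27), each at 10 CPM or less on average in both groups. Genes were ranked by this measure over all 8 libraries, so the difference between the groups enters it.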

How the data were processed

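The authors deposited a table of estimated counts per gene, in whole numbers and without normalization. Per the submitters' processing notes the tool Salmon 1.2.1 and the builds GRCm38 and mm10 were named, with no role. Neither the annotation release nor the step from transcripts to genes is known here. RNA was poly-A selected and strand-specific, per the labels' protocols. Columns were assigned by library name, and a POLR2G column whose number the labels lack was used without a replicate number. Chi-square per degree of freedom was 13.4 to 138 over the 12 pairs of libraries within a group, so none was counted as a duplicate.

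A symbol was found for 20817 of 20894 identifiers. The main test was edgeR 4.0.16 in R 4.3.3 (quasi-likelihood, two-sided, TMM scaling, no covariate) over 10390 genes that passed filterByExpr (minimum count 10, minimum total 15), with Benjamini-Hochberg adjustment. An SE is the absolute log2 fold change over the root of F. Log2 CPM used a prior count of 2. For the sums, the members' rows were replaced by their sum and the whole table was fitted again. Ratios had 0.5 added to each count and were tested over all 70 arrangements of the libraries.

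Coordinates and transcripts are from GENCODE M21 on GRCm38, while the table also holds identifiers outside that release. The transcript with the longest complete coding sequence stood for each gene. Coding sequences were aligned in pairs with Biopython 1.88 and in groups with MAFFT 7.526. Alternatives were other scaling (upper quartile, RLE, or library totals alone), DESeq2 1.42.0, limma-voom (limma 3.58.1), other low-count filters (none, or 1 CPM in at least 4 libraries), the replicate number as a block, each library left out, other sums and another added count. Members, lists and tests were chosen with earlier results of these data known. All members are named and, from each list, the genes that passed or else the 2 with the smallest p. For each sum the 3 genes nearest in pattern are named, without unnamed models and pseudogenes. From the female-biased list 1 gene is not reported here, and its summary, added after the data were seen, covers the other 11 genes.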

Additional observations from a re-analysis of the deposited data

Results flagged for a closer look

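Single libraries were compared with the other 3 of their group by Dixon's test at the 95% level, over 38 groups of values, of which chance marks about 1 in 20. It marked 2. Cyp4f13 in POLR2G replicate 3, at 3.86 CPM, was far above the other 3 POLR2G libraries. The log2 ratio of Cyp4a32 to the sum of Cyp4a10 and Cyp4a31 in GFP control replicate 2, at -4.001, was far below the other 3 GFP control libraries. The cause of either was not tested.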

How the results depend on the processing

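The signs of the log2 fold changes of all members but Cyp4a12a held in every alternative run, of which there were 17 for each, or 16 for Cyp4f13, to which DESeq2 gave no adjusted p. Cyp4a12a was positive at 0.24 with limma-voom and 0.32 with the replicate block, and ranged from -0.39 to 0.13 with 1 library left out. The number of members called was 0 with edgeR, 4 with DESeq2, 1 (Cyp4a14) with no low-count filter (0.0388% of all genes) or with the replicate block (0.0191%), and 0 to 1 with 1 library left out. The 4-gene Cyp4a sum passed with DESeq2 (-1.91) and with the replicate block (-1.64, adjusted p = 0.0242), and ranged from -2.18 to -1.77 with 1 library left out. The Cyp4a12 sum then ranged from -0.18 to 0.33. Without Cyp4a14 the Cyp4a sum was at -1.35 (edgeR adjusted p = 0.139), and without Cyp4a32 at -2.12 (edgeR adjusted p = 0.105). The replicate block could use the 6 libraries with shared numbers. The numbers did not pair the libraries (correlations of deviations 0.067, -0.023 and 0.037; 3 of 6 libraries correlated best with their own number). In the same 6 libraries without the block, a fit chosen after seeing the data, no member was called: the adjusted p was 0.402 for Cyp4a14 and 0.414 for the 4-gene Cyp4a sum (-1.64). Over all genes the block called 2, against 1 without it. For the ratios, leaving out Cyp4a14 gave log2 differences of -1.68 to the Cyp4f sum and -1.80 to the Cyp4a12 sum, whose adjusted exact permutation p no longer passed. With 1 library left out the difference ranged from -2.42 to -2.06 for the Cyp4a over the Cyp4f sum, -2.73 to -1.61 for the Cyp4a over the Cyp4a12 sum, -3.17 to -2.54 for Cyp4a14 over Cyp4a10, -0.50 to 0.42 for the Cyp4a12 over the Cyp4f sum and -0.043 to 0.24 for Cyp4v3 over the Cyp4f sum. It ranged from 1.26 to 1.63 for Cyp4a32 over Cyp4a10 and Cyp4a31 and from -0.87 to -0.51 for Cyp4a12a over Cyp4a12b. The ratios that passed with all 8 libraries lost their call in 5 of the 8 such fits, where at most 2 ratios reached the smallest exact permutation p (0.0286) and the adjusted p was 0.0714 or 0.0952. The cause of the other shifts was not tested. Few counts limit Cyp4a31 and Cyp4f13.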
